A study of Mus musculus with 6 samples.

Results

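Interferon signalling genes were followed in RNA-seq of mouse striatum, the part of the basal ganglia that receives cortical input. The set holds 9 of the 55335 genes in the count tables, all protein-coding and all matched by GENCODE symbol to 1 Ensembl identifier each. There were 4 receptor genes (Ifnar1, Ifnar2, Ifngr1 and Ifngr2) and 5 genes of transcription factors (Stat2, Irf1, Irf7, Irf8 and Irf9). They were listed by name with earlier results of these data known. The OE group held 3 striatum samples of C57 mice with the genotype given as PDE5A overexpressing, and the NC group held 3 striatum samples of C57 mice with the genotype given as WT. Age, sex, the number of animals behind a sample, the means of overexpression and any treatment of the NC mice are not stated in the labels. The study asked which transcripts differ in the striatum when PDE5A, a phosphodiesterase that hydrolyses cyclic GMP, is overexpressed.

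Interferons signal through paired receptor chains. IFNAR1 and IFNAR2 together bind type I interferons, and IFNGR1 and IFNGR2 form the receptor for interferon gamma. Receptor-bound JAK kinases then phosphorylate STAT proteins. STAT2 joins IRF9 in the ISGF3 complex, which binds the interferon-stimulated response element, while other STAT dimers bind the GAS element. IRF1, IRF7, IRF8 and IRF9 are members of the interferon regulatory factor family, several of which are themselves induced by interferon and carry the response into a later wave of transcription. In brain, IRF8 is known as a transcription factor of microglia.

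The receptor transcripts had similar average levels in OE and NC striatum, and the factor transcripts had higher average levels in OE. The 4 receptors had log2 fold changes (OE over NC) of -0.02 to 0.17, with a median of 0.12. The 5 factors had log2 fold changes of 0.38 to 0.95, with a median of 0.60. The median over all 19809 genes tested was 0.0016, and the middle 90% of those genes lay between -0.39 and 0.52. No member passed the threshold, an adjusted p under 0.05 in edgeR's quasi-likelihood test, where p was adjusted over all genes tested by the Benjamini-Hochberg method. All 9 members had an adjusted p of 1.0. In that test 1 gene of 19809, or 0.00505%, passed, which was Pde5a itself, with 30018, 23287 and 22170 counts in OE replicates 1 to 3 and 156, 170 and 246 in NC.

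The promoters of the members are shown because the factors are both makers and targets of this pathway, so the elements that STATs and IRFs bind can be looked for beside the measured levels. RefSeq promoter windows on GRCm38.p6, the assembly also called mm10, were at hand for all 9 members, as 12 windows of 250 bases before to 50 bases after a start site. The GAS element was searched as TTCNNNGAA, which reads the same on both strands. The core of the IRF or response element site was searched as GAAANNGAA on both strands. At least 1 GAS match was found for 4 of 9 members, where 9.55% of the 27025 genes in the table had one. Those were Irf1, Irf8, Ifnar2 and Ifnar1. The IRF core was found for 1 of 9 members, Stat2, where 9.76% of all genes had one. With the 250 upstream bases alone, 3 members had a GAS match and 1 had an IRF core, against 8.13% and 8.18% of all genes. No member had both motifs. A match describes letters in the window, and a window without one says nothing of whether a factor binds.

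Of these, 5 upstream sequences are printed 5′ to 3′ on the strand of the gene, each ending at the base before the start site, with motif matches in capitals. They are the 4 that hold a match and that of Irf7, the member with the largest fold change, whose window held neither motif. In Irf1 the GAS match lay at positions -90 to -82 from the start site. Irf8 had GAS matches at -171 to -163 and at -153 to -145. In Stat2 the capitals are the IRF core on the opposite strand, at -221 to -213. Ifnar2 had its GAS match at -214 to -206. The match in Ifnar1, at -5 to 4, straddled the start site and is not shown. The positions are chr11:53769764-53770013 on the plus strand for Irf1, chr8:120736108-120736357 plus for Irf8, chr10:128270248-128270497 plus for Stat2, chr16:91372533-91372782 plus for Ifnar2 and chr7:141266425-141266674 minus for Irf7.
Irf1: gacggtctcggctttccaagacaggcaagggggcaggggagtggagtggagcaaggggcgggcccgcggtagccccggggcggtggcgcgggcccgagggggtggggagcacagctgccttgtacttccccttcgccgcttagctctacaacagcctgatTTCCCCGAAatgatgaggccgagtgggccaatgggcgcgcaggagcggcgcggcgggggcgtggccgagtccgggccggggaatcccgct
Irf8: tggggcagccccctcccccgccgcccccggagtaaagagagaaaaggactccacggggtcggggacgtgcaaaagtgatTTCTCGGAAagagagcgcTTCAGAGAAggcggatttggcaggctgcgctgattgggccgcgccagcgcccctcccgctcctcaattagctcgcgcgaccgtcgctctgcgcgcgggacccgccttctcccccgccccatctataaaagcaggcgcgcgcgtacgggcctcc
Stat2: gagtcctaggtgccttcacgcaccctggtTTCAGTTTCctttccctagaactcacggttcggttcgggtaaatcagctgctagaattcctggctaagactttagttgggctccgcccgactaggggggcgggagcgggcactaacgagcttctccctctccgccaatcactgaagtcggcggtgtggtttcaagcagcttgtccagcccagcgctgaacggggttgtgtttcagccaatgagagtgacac
Ifnar2: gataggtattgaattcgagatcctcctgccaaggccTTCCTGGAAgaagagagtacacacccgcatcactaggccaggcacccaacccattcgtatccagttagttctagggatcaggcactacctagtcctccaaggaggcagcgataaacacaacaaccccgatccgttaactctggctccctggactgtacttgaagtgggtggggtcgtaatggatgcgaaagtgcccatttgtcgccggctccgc
Irf7: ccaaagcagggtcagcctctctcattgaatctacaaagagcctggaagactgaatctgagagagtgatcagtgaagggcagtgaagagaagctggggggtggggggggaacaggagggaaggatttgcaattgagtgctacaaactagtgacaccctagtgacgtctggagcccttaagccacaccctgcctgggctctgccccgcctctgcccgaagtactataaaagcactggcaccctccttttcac

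Levels of a gene are given as CPM, its counts scaled to a common library size that was corrected by TMM, a normalization that centres the bulk of genes. Library totals ran from 33013698 to 39271447 counts in OE and from 40653784 to 42288789 in NC. Choroid plexus markers were uneven. Their 12 genes summed to 919, 3446 and 317 CPM in OE replicates 1 to 3, against 452, 329 and 321 CPM in NC, so OE replicates 1 and 2 stood apart. Medium spiny neuron markers, which define striatal tissue, were present in every library, with 10 of 10 tested and sums of 3334 to 6877 CPM in OE and 3891 to 6909 CPM in NC. Each library is a separate sample in the labels, but nothing says that they came from separate animals, so a p-value here reflects only how far these samples spread, which may be technical. In bulk tissue, fewer cells of a type and less RNA per cell cannot be told apart.

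**Figure D1:**
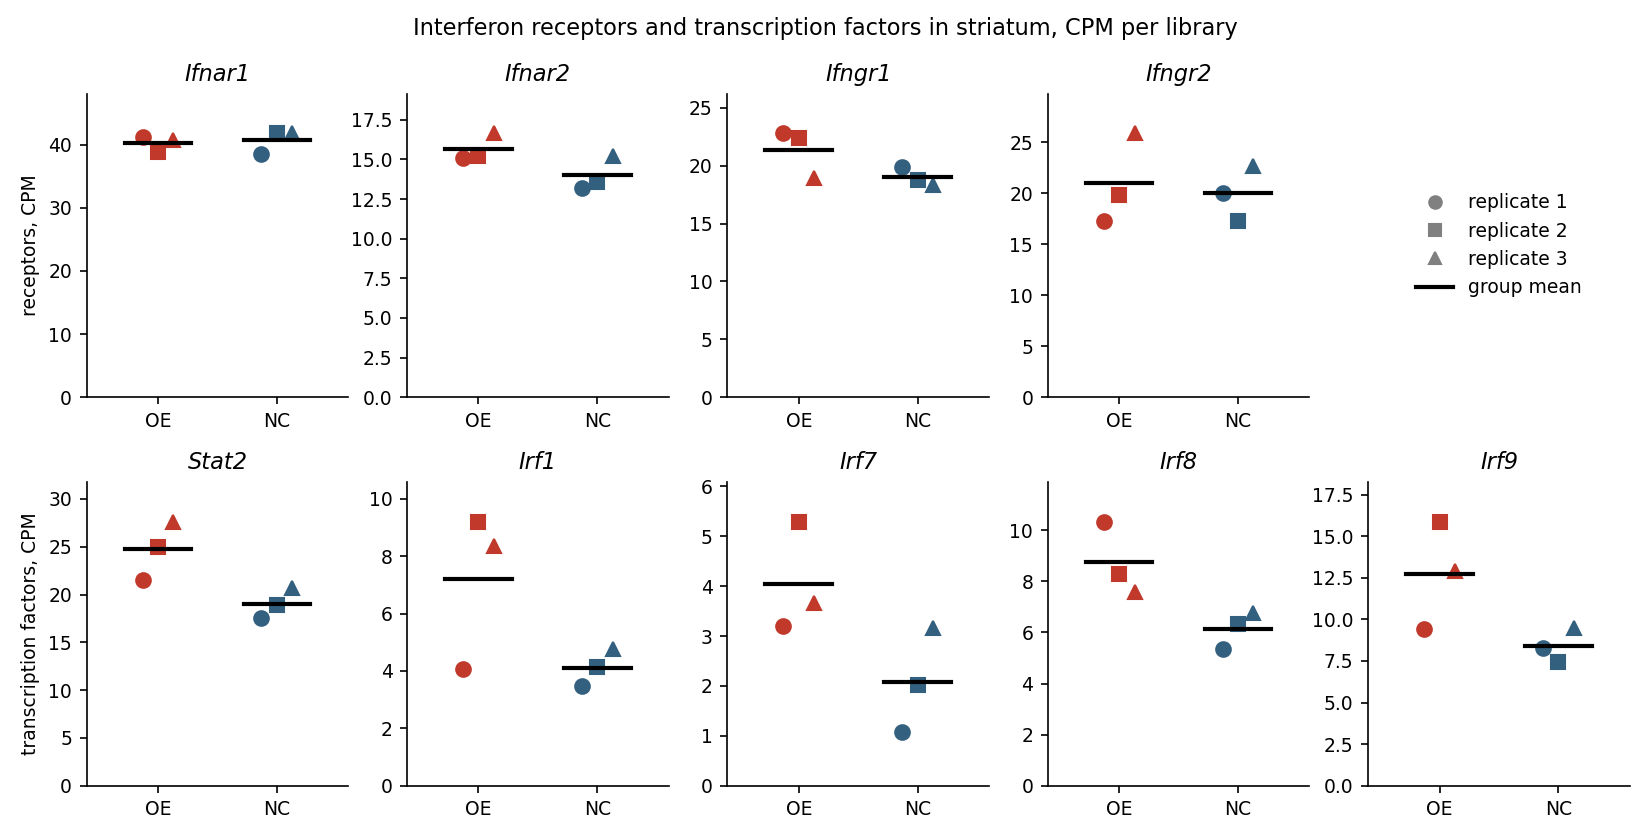
Level of each gene in CPM (vertical axis, starting at 0) for the 3 OE and 3 NC libraries, with 1 point per library, its shape giving the replicate, and a bar at the group mean. The top row holds the receptors, whose groups overlap in all 4 panels, and the bottom row the factors, of which Stat2, Irf7 and Irf8 have every OE library above every NC library.

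Ifnar1, which encodes a chain of the type I receptor, had 41.3, 38.8 and 40.8 CPM in OE replicates 1 to 3, against 38.5, 41.8 and 41.8 CPM in NC. The groups overlapped and the means were 40.3 ± 1.28 CPM in OE and 40.7 ± 1.89 CPM in NC (SD, n = 3 each). Ifnar1 had the smallest standard error of the 9 members, with a log2 fold change of -0.02 (SE 0.07).

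Ifnar2, which encodes the high-affinity chain, had 15.1, 15.2 and 16.7 CPM in OE and 13.2, 13.6 and 15.2 CPM in NC. Only the highest NC library, replicate 3, reached into the OE range. The log2 fold change was 0.16 (SE 0.10). Part of this gene is shared: 315 bp, or 9.46% of its exonic bases, also belong to Gm21970 on the same strand, a model with 0 counts in all 6 libraries.

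The groups overlapped for both chains of the interferon gamma receptor. Ifngr1, the ligand-binding chain, had 22.8, 22.4 and 18.95 CPM in OE and 19.9, 18.75 and 18.3 CPM in NC. OE replicates 1 and 2 were above all NC libraries, and OE replicate 3 was between NC replicates 1 and 2. Its log2 fold change was 0.17 (SE 0.10), and -0.0049 without OE replicates 1 and 2, the libraries high in choroid plexus markers. Ifngr2, the chain that brings in a second JAK kinase, had 17.3, 19.85 and 25.9 CPM in OE and 20.02, 17.3 and 22.7 CPM in NC. It held both the highest and the lowest value of the 6 libraries within OE, and its log2 fold change was 0.07 (SE 0.17). The direction turned when 1 library was left out, to -0.02 without NC replicate 2 and -0.11 without OE replicate 3, and the value was 0.37 without OE replicates 1 and 2. Markers of cortical glutamatergic neurons varied between libraries in nearly the same order as Ifngr2: their 8 genes summed to 357, 638 and 1195 CPM in OE replicates 1 to 3, against 547, 165 and 933 CPM in NC, with none at 0 in any library. Replicate 3 was the highest library of its group for both. The part of these cells in the level of Ifngr2 was not tested.

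Of the 4 receptors, 0 had groups apart in either direction, where 4.81% of all genes tested had every OE library above every NC library and 4.11% had every OE library below. None had an unadjusted p under 0.05 in edgeR's quasi-likelihood test, where 2.25% of all genes were higher at that level and 1.64% lower. Without OE replicate 3 that count was 1, Ifngr1, with a log2 fold change of 0.25 and an adjusted p of 1.0 in the same test. Exact two-sided permutation tests of the log2 CPM gave p from 0.2 to 1.0 for the receptors, where 0.1 is the smallest that 3 samples against 3 can give.

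Ifnar2, Ifnar1 and Ifngr2 lie within 192.8 kb of mouse chromosome 16, from 91372783 to 91565623 in mm10, and all 3 are on the plus strand. Ifngr1 lies apart from them on chromosome 10, from 19591949 to 19610229 on the plus strand. Il10rb, the shared second chain of the interleukin-10 and interferon lambda receptors, also maps to chromosome 16 and was in a list of 7 related receptor genes of the class II cytokine receptor family. It averaged 7.51 CPM in OE and 5.35 CPM in NC, with the groups apart and a log2 fold change of 0.49 (SE 0.14, adjusted p 1.0 in edgeR's quasi-likelihood test). The 6 relatives tested had a median log2 fold change of -0.06, with 1 positive, 5 negative and 0 past the threshold. Their smallest p values after Il10rb were for F3, tissue factor (log2 fold change -0.11), and Il20ra (-0.28). F3 had every OE library below every NC library, as had 4.11% of all genes tested. Il10rb had every OE library above every NC library, as had 4.81%.

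Stat2, whose protein is part of the ISGF3 complex, had 21.6, 25.0 and 27.6 CPM in OE replicates 1 to 3, against 17.5, 18.9 and 20.7 CPM in NC. Every OE library was above every NC library. Means were 24.7 ± 3.04 CPM in OE and 19.01 ± 1.58 CPM in NC (SD, n = 3 each), with a log2 fold change of 0.38 (SE 0.11), the smallest among the factors. The gene lies on chromosome 10, from 128270559 to 128292849 on the plus strand in mm10.

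Irf9, the DNA-binding partner of STAT2 in ISGF3, had 9.42, 15.9 and 12.9 CPM in OE and 8.28, 7.44 and 9.45 CPM in NC. OE replicate 1 and NC replicate 3 were nearly equal, with the NC library higher, so the groups overlapped. The log2 fold change was 0.60 (SE 0.20). Irf9 is on chromosome 14, from 55603571 to 55610030 on the plus strand, and shares 123 bp, 2.28% of its exonic bases, with Rnf31 on the same strand.

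Irf7, known as the factor that amplifies type I interferon production, was the least abundant member and had the largest fold change. It had 3.19, 5.29 and 3.66 CPM in OE and 1.07, 2.02 and 3.17 CPM in NC. The groups were apart only by the margin between OE replicate 1 and NC replicate 3, whose raw counts were 126 and 128 in libraries of different depth. Means were 4.05 ± 1.10 CPM in OE and 2.09 ± 1.05 CPM in NC (SD, n = 3 each), a 1.94-fold difference with a log2 fold change of 0.95 (SE 0.39). Irf7 lies on the minus strand of chromosome 7, from 141262706 to 141266481, and shares 45 bp with Phrf1 on the opposite strand. Whether strand was used in counting is not given in the sources used here. Phrf1 had 1500, 1265 and 1498 counts in OE and 1695, 1630 and 1599 in NC, so its raw counts were higher in all NC libraries, which were also deeper.

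Irf1, a factor induced by interferon gamma among other signals, had 4.08, 9.20 and 8.36 CPM in OE and 3.46, 4.12 and 4.78 CPM in NC. OE replicates 2 and 3 were well above all NC libraries, and OE replicate 1 was below NC replicates 2 and 3. The log2 fold change was 0.81 (SE 0.30), and the coefficient of variation in OE was 38.1%, against 15.98% in NC. Irf1 is on chromosome 11, from 53770014 to 53778374 on the plus strand, and shares 135 bp with Gm17334 on the opposite strand, which had 13 to 32 counts per library.

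Irf8 had 10.3, 8.30 and 7.58 CPM in OE and 5.37, 6.31 and 6.78 CPM in NC. The groups were apart, and OE replicate 1, the lowest OE library for the other 4 factors, was the highest for Irf8. The log2 fold change was 0.51 (SE 0.16). It was 0.37 without OE replicate 1, and 0.30 without OE replicates 1 and 2, the libraries high in choroid plexus markers. Irf8 lies on chromosome 8, from 120736358 to 120756694 on the plus strand. Microglia markers were set beside it: the 15 genes of that list summed to 734, 716 and 571 CPM in OE replicates 1 to 3, against 658, 612 and 650 CPM in NC, with none at 0 counts in any library. In OE the order of replicates was thus the same as for Irf8, and across groups the sums overlapped. The list had 9 positive and 6 negative log2 fold changes and a median of 0.03, below the 0.51 of Irf8. Its part in the Irf8 difference was not tested.

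Counted together, 3 of 5 factors (Stat2, Irf7 and Irf8) had every OE library above every NC library, beside 4.81% of all genes. All 5 had a log2 fold change above 0, as did 3 of 4 receptors and 50.6% of all genes. All 5 had an unadjusted p under 0.05 in edgeR's quasi-likelihood test, from 0.0111 for Stat2 to 0.0428 for Irf7, beside 2.25% of all genes. The members were listed with earlier results known and this count was chosen after seeing the data, so it is a description only. That count depended on single libraries: it was 2 without NC replicate 1, without NC replicate 2 or without OE replicate 2, 3 without OE replicate 3, and 1 (Stat2) when choroid plexus level entered the fit as a covariate. The log2 fold changes of the 5 factors stayed positive in all 17 other settings. In the DESeq2 Wald test 0 of 9 members had an adjusted p under 0.05, where 0.384% of genes were called higher, and factors had adjusted p from 0.440 to 0.815. Exact two-sided permutation tests gave p = 0.1, the smallest possible, for Stat2, Irf7 and Irf8, 0.2 for Irf9 and 0.3 for Irf1.

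**Figure D2:**
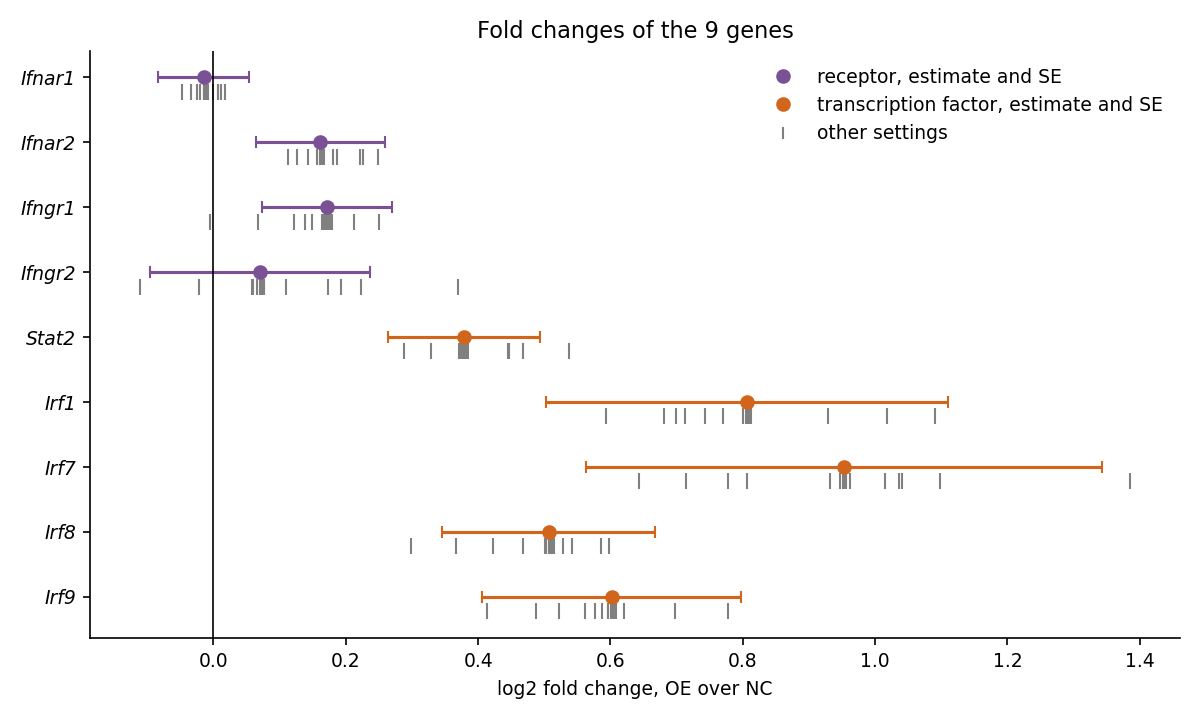
Log2 fold change of OE over NC for each gene (horizontal axis), with a point and a bar of 1 standard error on each side from edgeR, and grey ticks for the same gene in the 17 other settings. The receptors lie between -0.02 and 0.17 and the factors between 0.38 and 0.95, and all ticks of the factors lie above 0.

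Receptors were set against factors within each library, which cancels library scaling. The mean log2 CPM of the 5 factors minus that of the 4 receptors was -1.52, -1.04 and -1.31 in OE replicates 1 to 3, against -2.09, -1.79 and -1.64 in NC. Every OE library was above every NC library, with OE replicate 1 and NC replicate 3 the closest. The group means were -1.29 ± 0.24 in OE and -1.84 ± 0.23 in NC (SD, n = 3 each), a difference of 0.55 on the log2 scale. The members were chosen with results known, so no test is given. The receptor mean was 4.53 ± 0.06 log2 CPM in OE and 4.43 ± 0.07 in NC, while the factor mean was 3.23 ± 0.26 in OE and 2.59 ± 0.27 in NC.

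**Figure D3:**
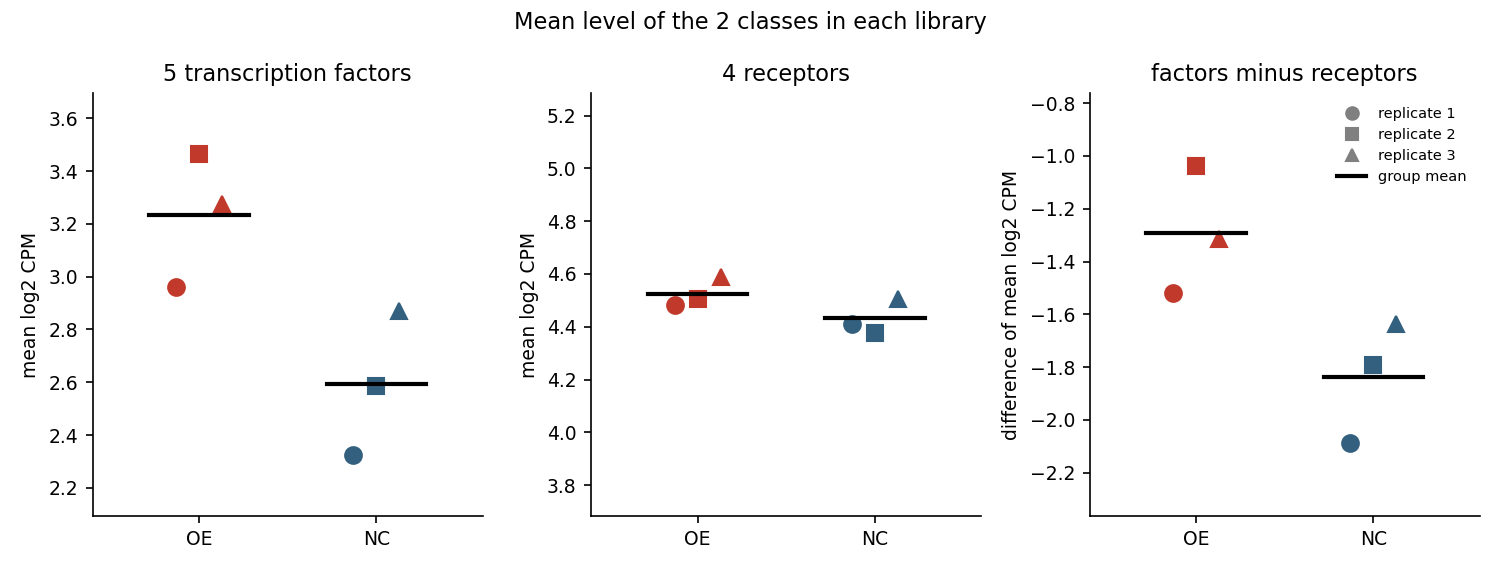
Mean log2 CPM of the 5 factors, of the 4 receptors and their difference (vertical axes, each spanning the same range of log2 units) in the 3 OE and 3 NC libraries, with points by replicate and bars at group means. The factor means and the difference are apart between groups, while the receptor means overlap, with NC replicate 3 at 4.51 above OE replicates 1 and 2 at 4.48 and 4.50.

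Within NC, replicate 3 had the highest level of all 5 factors. Within OE, replicate 1 had the lowest level of Stat2, Irf1, Irf7 and Irf9. The factors did not keep a fixed ratio. Irf7 over Irf9 in CPM was 0.339, 0.333 and 0.283 in OE, against 0.1297, 0.272 and 0.335 in NC, so NC replicate 3 lay within the range of the OE libraries and NC replicate 1 was the lowest of all.

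To compare levels between genes, CPM was divided by the length of all exons of a gene in GENCODE M21, giving RPKM. In OE the order was Ifngr1 (7.51 ± 0.74 RPKM), Ifnar1 (6.78 ± 0.22), Ifngr2 (5.58 ± 1.18), Ifnar2 (4.70 ± 0.26), Stat2 (4.17 ± 0.51), Irf9 (2.37 ± 0.60), Irf1 (1.81 ± 0.69), Irf8 (1.24 ± 0.20) and Irf7 (1.07 ± 0.29), with SD over 3 libraries. In NC it was Ifnar1 (6.85 ± 0.32 RPKM), Ifngr1 (6.67 ± 0.29), Ifngr2 (5.32 ± 0.71), Ifnar2 (4.21 ± 0.31), Stat2 (3.21 ± 0.27), Irf9 (1.56 ± 0.19), Irf1 (1.04 ± 0.17), Irf8 (0.872 ± 0.10) and Irf7 (0.553 ± 0.28). In both groups the gap between Ifngr1 and Ifnar1 was smaller than the sum of their SDs, as were those from Irf1 to Irf8 and from Irf8 to Irf7. In OE the same held from Ifnar1 to Ifngr2, from Ifngr2 to Ifnar2, from Ifnar2 to Stat2 and from Irf9 to Irf1, so only the step from Stat2 to Irf9 was larger there. All 4 receptors were above all 5 factors in 6 of 6 libraries. With the longest transcript as the length that held in 3 of 6 libraries, the NC ones. In OE, Stat2 was above the lowest receptor in each library, which was Ifngr2 in replicate 1 (4.90 RPKM for Stat2 and 4.67 for Ifngr2) and Ifnar2 in replicates 2 and 3 (5.68 and 6.28 RPKM for Stat2, and 4.995 and 5.47 for Ifnar2). The 4 IRFs stayed below the receptors with either length.

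**Figure D4:**
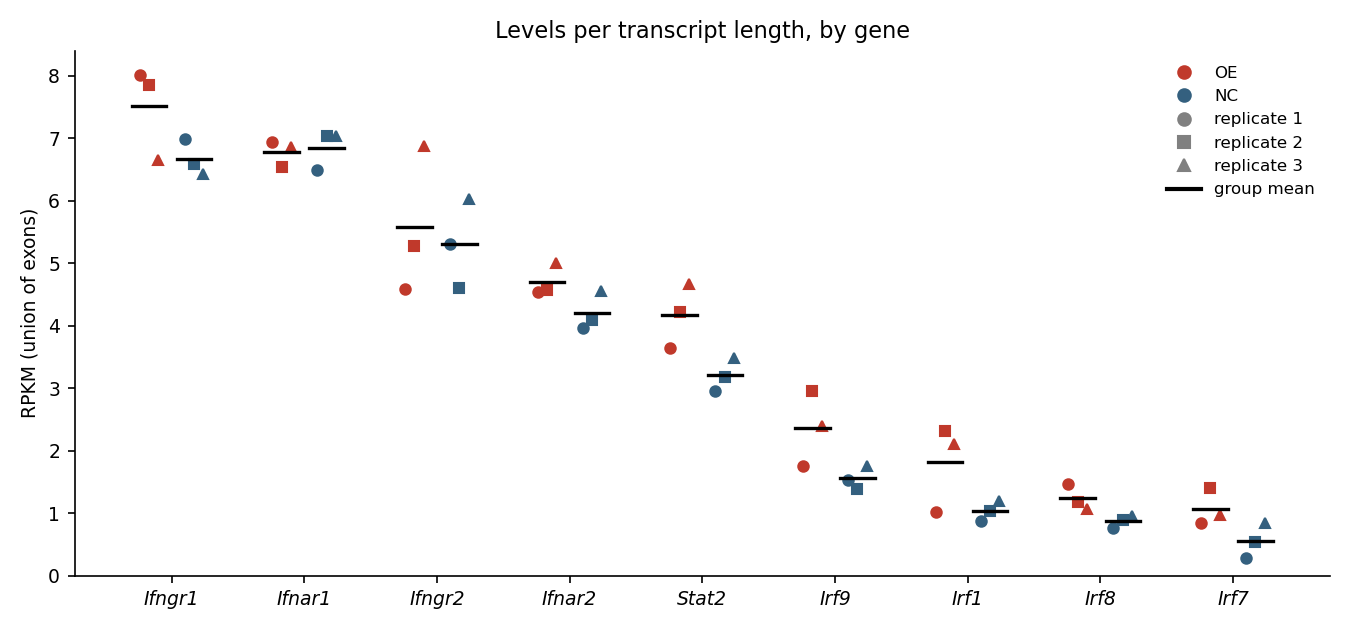
RPKM over the union of exons (vertical axis, starting at 0) of the 9 genes, ordered by their mean in OE, with OE points left of NC points for each gene and bars at group means. The 4 receptor genes and Stat2 are at 2.955 RPKM or more in every library, and the 4 IRFs at 2.949 RPKM or less.

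Receptor chains of a pair were also set against each other per length. Ifnar1 over Ifnar2 was 1.53, 1.43 and 1.37 in OE and 1.63, 1.72 and 1.54 in NC, so each OE library was just below each NC library, with OE replicate 1 and NC replicate 3 closest. Ifngr1 over Ifngr2 was 1.75, 1.49 and 0.968 in OE and 1.32, 1.43 and 1.07 in NC, so the groups overlapped.

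The rest of the pathway was described from lists, given by their counts and medians beside the all-gene median of 0.0016. Transcripts of the interferons themselves were at the limit of detection. Of 21 interferon ligand genes 0 could be tested, 16 had 0 counts in all libraries and no library had more than 4 counts of any. A count of 0 allows up to 3 counts, or 0.0909 CPM on the total of the shallowest library, for counting error only. The ligand genes with any counts, named after their values were seen, were Ifng with 2 counts in OE replicate 2 alone, Ifna9 with 4 in OE replicate 3 alone, Ifnz with 1 in NC replicate 2 alone, and Ifne and Ifnk with at most 4 counts in single libraries of both groups.

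The 3 receptor-bound kinases had a median log2 fold change of 0.05 and 0 past the threshold. Tyk2, the kinase bound to IFNAR1, averaged 16.5 CPM in OE and 13.8 CPM in NC with the groups apart (log2 fold change 0.26), and Jak1 and Jak2 had log2 fold changes of -0.03 and 0.05. Of the STATs that serve other cytokines, Stat5a, Stat4 and Stat6 had log2 fold changes of 0.44, 0.51 and 0.06, with overlapping groups and an adjusted p of 1.0 each in edgeR's quasi-likelihood test. Stat3 and Stat5b, higher in level at means of 50.3 and 32.2 CPM in OE, had log2 fold changes of 0.0034 and -0.06.

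All 5 other IRFs had positive log2 fold changes, with a median of 0.22 and 0 past the threshold. Irf4, a factor of lymphocytes and plasma cells, had 24, 43 and 33 counts in OE and 17, 14 and 15 in NC, with a log2 fold change of 1.30 (SE 0.37). It was low in level, at 0.927 CPM in OE and 0.373 CPM in NC. Irf3, the constitutively present factor that first drives type I interferon genes, averaged 17.7 CPM in OE and 15.3 CPM in NC (log2 fold change 0.22), and Irf5 had a log2 fold change of 0.26.

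Feedback regulators (13 genes) had a median log2 fold change of 0.04 with 9 positive, and upstream sensing adaptors and kinases (14 genes) had a median of 0.11 with 11 positive, both with 0 past the threshold. Usp18, which binds IFNAR2 and restrains its signal, had 116, 165 and 104 counts in OE and 15, 45 and 101 in NC, with a log2 fold change of 1.43 (SE 0.64). Ptpn6, the phosphatase SHP-1, averaged 7.09 CPM in OE and 4.77 CPM in NC (log2 fold change 0.57, SE 0.14), and Socs1, an inhibitor of JAK kinases, had a log2 fold change of 0.70 with overlapping groups. Among the sensing genes Tlr9, a receptor for DNA, had 0.76 (SE 0.26), Tmem173, which encodes STING, had 0.39 and Irak1 had 0.11.

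Genes long known as interferon-induced had the highest median of the pathway lists. All 25 had positive log2 fold changes, with a median of 1.29, 21 with groups apart and 0 past the threshold in edgeR's quasi-likelihood test, while the DESeq2 Wald test called 12 of them. Of all genes tested, 4.81% had every OE library above every NC library, and the DESeq2 Wald test called 0.384% of genes higher. The smallest p values of the list in edgeR were those of Gbp2, Psmb8 and Xaf1, with log2 fold changes of 1.51, 1.56 and 0.61. This list is known from earlier results of these data to be higher in OE, so its direction is not separate evidence about the members.

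**Figure D5:**
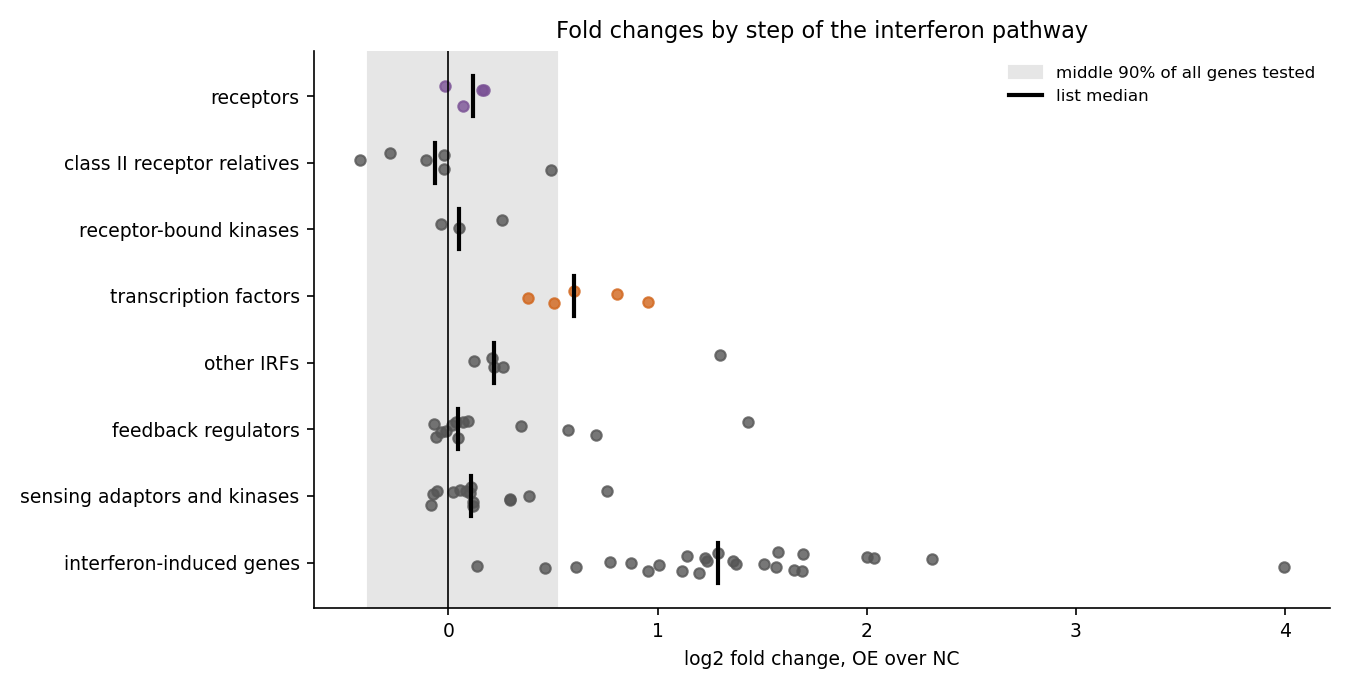
Log2 fold change of OE over NC (horizontal axis) for each gene tested, by list, with a black bar at each list's median and a grey band for the middle 90% of all genes tested. Receptors and kinases have medians of 0.12 and 0.05, the factors 0.60 and the interferon-induced genes 1.29, and the point at 3.99 is Cxcl9, which had 0 counts in NC replicates 1 and 2.

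Markers of immune cells that can enter the brain had higher average levels in OE, with 0 past the threshold in edgeR's quasi-likelihood test in each of the T and NK, B and plasma, and myeloid lists. The DESeq2 Wald test called Cxcr6 of the T and NK list (adjusted p 0.00369) and Mzb1 of the B and plasma list (0.0374). It called 0.384% of all genes higher. Of all genes tested, 4.81% had every OE library above every NC library and 4.11% had every OE library below. Of 16 T and NK cell markers, 11 were tested, all 11 with positive log2 fold changes (median 1.84) and 8 of the 11 with the groups apart. A gene could pass the filter on low counts through OE alone, as did Cd3e (3, 0 and 8 counts in NC) and Cd3g (6, 7 and 2). For such genes a positive direction was set by the filter. The counts of positive genes, of groups apart and the medians of the immune lists are thus description only. Their summed level was 61.05 to 90.97 CPM in OE and 48.7 to 80.1 CPM in NC, most of it Cd4, at 64.6 CPM in OE and 58.04 CPM in NC. Cd3e of the same list averaged 0.718 CPM in OE and 0.09 CPM in NC. Cd4 had 80.2, 72.4 and 41.3 CPM in OE and 56.7, 77.4 and 40.0 CPM in NC. Within each group that was the replicate order of the medium spiny neuron sums, 6877, 5341 and 3334 CPM in OE and 5178, 6909 and 3891 CPM in NC. The cells behind the Cd4 level were not tested. Gzmb and Prf1, which define cytotoxic cells, were too low to be tested and were at 0 in all NC libraries. In OE replicates 1 to 3 Gzmb had 4, 9 and 4 counts and Prf1 had 4, 17 and 6. Nkg7 of the same list had 19, 33 and 6 counts in OE and 0, 7 and 5 in NC, with overlapping groups. Cd3d was at 0 in NC replicates 1 and 2. The 8 B and plasma cell markers had 6 tested, all 6 with positive log2 fold changes (median 2.33) and 4 of the 6 with the groups apart. The 8 genes summed to 92.1, 329 and 255 CPM in OE, against 30.7, 12.5 and 94.5 CPM in NC. Most of that sum was Igkc, Ighm and Jchain. Igkc averaged 127 CPM in OE and 16.85 CPM in NC, with overlapping groups. Of 12 markers of infiltrating myeloid cells 8 were tested, 7 with positive log2 fold changes (median 0.88), and 3 had the groups apart. Those were Ly6c2, Ccr2 and Itgax, with log2 fold changes of 1.68, 1.91 and 1.12. The 12 genes summed to 9.37 to 14.3 CPM in OE and 6.12 to 9.495 CPM in NC, a sum in which Flt3, with a log2 fold change of -0.16, weighed most on average. Ly6g was at 0 in all OE libraries and in NC replicates 2 and 3. OE replicate 1 was the lowest OE library and NC replicate 3 the highest NC library for the B and plasma cell sum, as for Stat2, Irf1, Irf7 and Irf9. The other sums differed from this order. For the T and NK cell sum they were OE replicate 3 and NC replicate 2, and for the myeloid sum OE replicate 1 and NC replicate 1. By mean log2 CPM of the genes tested, which no single gene dominates, OE replicate 1 was lowest in OE and NC replicate 3 highest in NC for both lists. T and NK markers had 0.26, 0.63 and 0.63 in OE replicates 1 to 3, against -1.18, -1.36 and -0.73 in NC. Myeloid markers had -0.11, 0.29 and 0.03 in OE, against -0.74, -1.01 and -0.64 in NC. Astrocyte markers had 8 of 9 log2 fold changes negative, a median of -0.19, 5 genes with every OE library below every NC library and 0 past the threshold in edgeR's quasi-likelihood test. Their sums were 4501 to 5158 CPM in OE and 5236 to 5623 CPM in NC, with none at 0. The 1 positive gene was Gfap, a marker of reactive astrocytes, which averaged 268.7 CPM in OE and 174.0 CPM in NC, with a log2 fold change of 0.63 and an adjusted p of 0.968 in edgeR and of 0.0418 in the DESeq2 Wald test. The part of these cells in the levels of the factors was not tested.

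The 3 genes most like each member were found by the root mean square difference of log2 CPM profiles, each centred on its own mean over the 6 libraries, among 16043 genes with a mean of at least 1 CPM. The libraries are few and the genes many, so these are descriptions with no test. For Irf7 they were Ifi35, Trim30a and Parp14, at differences of 0.06, 0.09 and 0.11 log2 units, where the profile of Irf7 itself varied by 0.71 around its mean. Ifi35 had 2.79, 5.11 and 3.44 CPM in OE and 1.002, 1.88 and 2.75 CPM in NC, repeating the order of libraries seen for Irf7. For Irf9 they were Pqlc3, Ifit2 and Phyhd1 (0.08 to 0.11), for Irf1 Ccdc160, Pcdha9 and Gbp5 (0.17 to 0.20), for Stat2 H2-T22, Rcc1l and Slc1a5 (0.04 to 0.07), and for Irf8 H2-T10, BC051142 and Gm42727 (0.07 to 0.09). Counts of H2-T22 and H2-T10 are uncertain, since these class I genes have close relatives. For the receptors the nearest genes were Rmnd5b, Rnf40 and Cdkal1 for Ifnar1, Ttc27, Zdhhc1 and Sdccag8 for Ifnar2, Samhd1, Armt1 and Ctnnal1 for Ifngr1, and Extl1, Gm47163 and Tcf4 for Ifngr2, all within 0.04 log2 units of profiles that varied by 0.05 to 0.21.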

How the data were processed

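Striatal total RNA was taken with Trizol and made into strand-specific TruSeq libraries, per the labels' protocols. The deposited files hold whole-number counts per Ensembl gene, 1 library each, not normalized. The submitters' processing notes name STAR 2.5.3a, FastQC 0.11.5, DESeq 1.16.1, Cuffnorm and the build mm10, without roles. For the counting, program and strand setting were not stated in those notes. Of 55335 identifiers, 55154 matched GENCODE M21, which gave symbols, positions and exon lengths.

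Samples were grouped by title. OE was compared with NC by edgeR 4.0.16 in R 4.3.3 (TMM, filterByExpr, robust quasi-likelihood F-test, two-sided, Benjamini-Hochberg over 19809 genes). Standard errors are the absolute log2 fold change over the square root of F. Log2 CPM used a prior count of 2. Alternatives were DESeq2 1.42.0, limma-voom 3.58.1, other size factors and filters, removal of mitochondrial genes, a replicate block and leaving out libraries. Chosen after seeing the data were the likelihood ratio test, the choroid plexus covariate, the fit without OE replicates 1 and 2, and the count at unadjusted p. No pair of replicates was within sampling noise (chi-square per degree of freedom 19.1 to 49.6).

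Members and lists were chosen with earlier results of these data known. Named genes are the members, up to 3 per list with the smallest p, Stat3 and Stat5b, and the 3 most alike per member. 1 gene of the pathway lists is not reported here, and no count or median is given for its list.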

Additional observations from a re-analysis of the deposited data

How the results depend on the processing

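All 5 factors kept positive log2 fold changes and an adjusted p above 0.05 in edgeR's quasi-likelihood test and in all 17 other fits, from 0.29 to 0.54 for Stat2, 0.59 to 1.09 for Irf1, 0.64 to 1.39 for Irf7, 0.30 to 0.60 for Irf8 and 0.41 to 0.78 for Irf9. Ifnar2 stayed positive too. The sign of the other receptors, none called, turned in some fits. With 1 library left out, Ifnar1 ran from -0.0476 to 0.0107 and Ifngr2 from -0.11 to 0.19. Ifnar1 was 0.0177 when choroid plexus level was a covariate, and Ifngr1 was -0.0049 without OE replicates 1 and 2. The receptor median ran from 0.0432 to 0.16 with 1 library left out.

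The number of factors at an unadjusted p under 0.05 was 2 to 5 with 1 library left out, 3 without OE replicates 1 and 2, and 1 with the choroid plexus covariate. The factor minus receptor difference of 0.55 was 0.55 with a prior count of 0.5.

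The number of genes past the threshold, 1, was 1 to 2 with 1 library left out. It was 3 without a filter on low counts, 3 at an adjusted p under 0.10, 5 with limma-voom, 5 without OE replicates 1 and 2, 65 with the likelihood ratio test and 83 with DESeq2. Same-numbered libraries deviated together with correlations of -0.02, 0.03 and 0.42, so the numbers were not taken as pairs. With a replicate block the number was 3 and that of factors at an unadjusted p under 0.05 stayed 5. The cause of these changes was not tested. Depth limits the ligand genes, where a count of 0 allows 0.0709 to 0.0909 CPM per library.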
